A study of Mus musculus with 6 samples.

Results

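AP-1 and other immediate early genes are represented here by 10 genes taken by symbol, namely Fos, Fosb, Jun, Junb, Jund, Atf3, Egr1, Nr4a1, Ier2 and Dusp1, out of 48395 gene symbols in the tables. All 10 had counts and all 10 were among the 16739 genes that passed the filter on low counts. Their levels were measured by RNA sequencing of LSK cells, marrow cells sorted for c-Kit and Sca-1 and against lineage markers, a fraction that holds blood stem cells and early progenitors. The 3 libraries labelled Hmga2 came from marrow of Mx1Cre; Jak2V617F/+ mice given 5-fluorouracil, transduced with a lentivirus carrying Hmga2 and transplanted into lethally irradiated C57BL/6 recipients. The 3 libraries labelled vector came from the same kind of marrow transduced with the vector alone, so both groups carry the Jak2 allele, an activating mutation of a cytokine receptor kinase, and the Mx1Cre transgene, which is driven by an interferon-inducible promoter. All marrow was collected 32 weeks after transplantation. The labels name no sort for transduced cells, and the share of LSK cells that carried virus was not stated. The labels call the libraries biological replicates.

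Immediate early genes are transcribed within minutes of a stimulus without new protein synthesis, when kinase cascades activate factors already bound at their promoters. FOS and JUN family proteins pair through leucine zippers to form AP-1, a transcription factor, while other products of the response switch it off again. The same genes are known to respond to cell isolation and sorting as well as to growth factors.

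The libraries held 24818011 to 35471806 counts, and values below are CPM, that is counts scaled to the library total and to TMM factors, edgeR's correction for composition. Hmga2, the introduced gene, had 2.64, 6.62 and 5.92 CPM in libraries labelled Hmga2, against 5.97, 5.02 and 7.04 CPM in vector libraries, a log2 fold change of -0.25 (standard error 0.35, adjusted p = 0.934, edgeR). The label was not borne out by that gene, and it is not stated whether its counts include the viral copy, so directions below belong to libraries labelled Hmga2. Of the markers that define the sort, Kit had 345 to 375 CPM in libraries labelled Hmga2 and 248 to 354 CPM in vector libraries, while Ly6a, which encodes Sca-1, had 32.2, 45.5 and 33.2 CPM in libraries labelled Hmga2 and 51.5, 19.3 and 59.1 CPM in vector libraries.

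The promoters of 4 members are shown first, because sites for activators already present in resting cells are the textbook route of their induction. They are those of the 8 in the table with more than 1 match to the motifs below. Each line is the 250 bases before the RefSeq start on GRCm38.p6. RefSeq entries were used for 8 of the 10 members, all but Egr1 and Ier2, so the counts below do not cover those genes. Capitals mark matches, on either strand, to TGACG, to TGACGTCA, which contains it, or to GCGNGGGCG. The motif TGACG is the core of the cAMP response element (CRE), TGACGTCA is the full palindromic CRE, and GCGNGGGCG is bound by EGR factors.
Fos, chr12:85473640-85473889, plus strand: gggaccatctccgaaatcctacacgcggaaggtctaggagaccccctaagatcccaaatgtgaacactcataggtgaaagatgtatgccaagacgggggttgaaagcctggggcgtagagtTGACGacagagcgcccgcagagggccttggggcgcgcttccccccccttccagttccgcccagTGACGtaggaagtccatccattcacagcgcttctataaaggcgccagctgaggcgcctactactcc
Fosb, chr7:19310046-19310295, minus strand: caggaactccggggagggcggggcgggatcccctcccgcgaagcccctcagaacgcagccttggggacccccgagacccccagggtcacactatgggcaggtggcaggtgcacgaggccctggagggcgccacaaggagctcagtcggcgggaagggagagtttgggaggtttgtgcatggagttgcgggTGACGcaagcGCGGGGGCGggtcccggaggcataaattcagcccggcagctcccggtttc
Nr4a1, chr15:101266596-101266845, plus strand: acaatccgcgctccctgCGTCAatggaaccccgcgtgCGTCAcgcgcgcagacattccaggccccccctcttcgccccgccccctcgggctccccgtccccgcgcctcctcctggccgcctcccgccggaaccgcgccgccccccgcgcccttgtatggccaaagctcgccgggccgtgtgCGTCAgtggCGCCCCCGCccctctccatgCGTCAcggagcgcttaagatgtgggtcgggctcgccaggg
Dusp1, chr17:26508473-26508722, minus strand: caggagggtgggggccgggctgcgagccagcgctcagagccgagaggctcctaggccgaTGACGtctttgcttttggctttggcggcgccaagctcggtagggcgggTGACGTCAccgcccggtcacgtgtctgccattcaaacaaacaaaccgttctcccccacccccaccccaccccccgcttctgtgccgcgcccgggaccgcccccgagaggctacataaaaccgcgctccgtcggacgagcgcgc

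A CRE core stood in 6 of the 8 member promoters, beside 17.8% of the 32851 promoters of the same length in the table. They were those of Fos, Fosb, Junb, Atf3, Nr4a1 and Dusp1, and the windows of Jun and Jund held none. Only exact matches were counted here and below, so near matches, such as TGACATCA in the Jun window, are not included. The Jund window ends at position 70697738 and so does not adjoin the GENCODE start of Jund at 70698949. Its values therefore do not describe the bases next to that start. The windows of Atf3, Nr4a1 and Dusp1 lay inside the GENCODE spans given below for these genes. They adjoin a RefSeq start within the span and not its outermost start. The full CRE was in 1 of the 8, that of Dusp1, beside 1.55% of all promoters. Nr4a1 held 4 cores, at 233 to 229, 213 to 209, 69 to 65 and 40 to 36 bases before its start. Fos held cores at 129 to 125 and at 66 to 62 bases before its start, with a TATA box, TATAAA, at 33 to 28 bases. EGR sites were in 2 of the 8, at 50 to 42 bases before the start of Fosb and at 60 to 52 bases before that of Nr4a1, beside 4.7% of all promoters. No match to the AP-1 site TGANTCA or to the CArG box of serum response factor lay in these windows, beside 6.75% and 1.47% of all promoters. The G and C content of the 8 member promoters ran from 47.6% for Jund to 74.4% for Nr4a1. The median over all promoters was 52.4%, and only the Jund window lay below it. The shares over all promoters given above were not matched for G and C content, and its part in the motif counts was not tested.

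Most members were ordered alike over the libraries, and the groups overlapped for each of the 10. Vector replicate 1 was the highest library for 9 of the 10 members, while the same library was highest for 15.1% of all genes tested. Within the other group, replicate 3 labelled Hmga2 was the highest of its 3 libraries for all 10 members. The CPM of the 10 members summed to 453, 296 and 914 in libraries labelled Hmga2 and to 1763, 751 and 337 in vector libraries. The groups thus overlapped, with replicate 3 labelled Hmga2 above 2 of the 3 vector libraries.

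**Figure D1:**
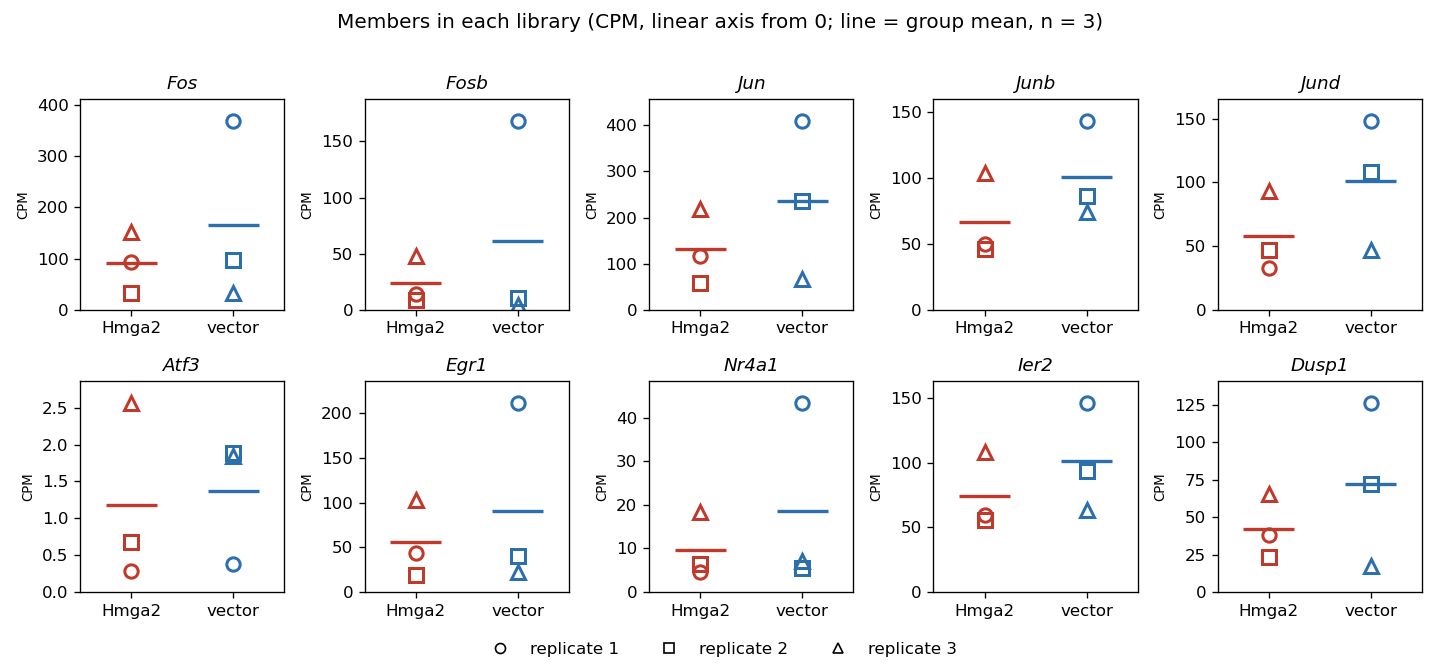
CPM of each member (linear vertical axes from 0) in the 3 libraries labelled Hmga2 (red) and the 3 vector libraries (blue); symbols give the replicate number and lines the group means. Vector replicate 1 is the top point in every panel but that of Atf3, and replicate 3 labelled Hmga2 is the top red point in all 10.

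Among the FOS subunits, which must pair with a JUN protein to bind DNA, Fos (chromosome 12, positions 85473890 to 85477273, GRCm38) had 92.4, 32.3 and 152 CPM in libraries labelled Hmga2, against 368, 97.9 and 32.5 CPM in vector libraries. Its lowest libraries, replicate 2 labelled Hmga2 and vector replicate 3, came one from each group and were alike, with 994 and 776 counts behind them. For Fos the log2 fold change of libraries labelled Hmga2 over vector was -0.85 (standard error 0.87, adjusted p = 0.897, edgeR quasi-likelihood test). Fosb (chromosome 7, positions 19302696 to 19310051), whose product forms AP-1 dimers much as that of Fos does, was the most variable member, at 14.2, 8.46 and 48 CPM in libraries labelled Hmga2 and 168, 10.9 and 4.61 CPM in vector libraries. Vector replicate 1 stood 3.5-fold above the next library for Fosb, and 36.5-fold above vector replicate 3. The Fosb log2 fold change of -1.38 had a 95% interval from -4.4 to 1.63 (adjusted p = 0.894, edgeR).

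The 3 JUN genes lie on single exons and encode partners that can pair with FOS proteins or with each other. Jun (chromosome 4, positions 95049034 to 95052222) had 117, 57.3 and 219 CPM in libraries labelled Hmga2, against 409, 235 and 66.4 CPM in vector libraries. Junb (chromosome 8, positions 84974484 to 84978718), known in mice to restrain the growth of myeloid cells, had 49.9, 45.9 and 104 CPM in libraries labelled Hmga2, against 143, 86.2 and 74.1 CPM in vector libraries. For Junb all vector libraries lay above replicates 1 and 2 labelled Hmga2, while replicate 3 lay within the vector range. Jund (chromosome 8, positions 70698949 to 70700616), the JUN gene that is usually the least inducible, had 32.8, 46.8 and 93.3 CPM in libraries labelled Hmga2, against 148, 108 and 46.7 CPM in vector libraries. The log2 fold changes were -0.85 ± 0.68 for Jun, -0.60 ± 0.37 for Junb and -0.81 ± 0.49 for Jund (± standard error), and the smallest adjusted p of the 3 was 0.855 (edgeR). Jun overlaps the antisense gene Junos, Jund overlaps the antisense gene Gm11175 and the annotated Junb gene overlaps the end of Prdx2 on the other strand. The annotated span of Dusp1 overlaps Ergic1 and the pseudogene Gm8225 on the other strand and a pseudogene and a sense-intronic RNA on its own, and that of Atf3 overlaps Gm24748 on the other strand. Since it is not stated whether counting used strand, reads of these partners cannot be told apart.

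Atf3, a stress-induced bZIP factor that dimerises with JUN proteins and often represses, was the exception in both level and order. The gene (chromosome 1, positions 191170296 to 191218039) had 0.283, 0.683 and 2.56 CPM in libraries labelled Hmga2, against 0.378, 1.88 and 1.84 CPM in vector libraries, from 10 to 88 counts per library. Vector replicate 1, the top library of the 9 other members, was the second lowest for Atf3. The groups overlapped and the log2 fold change was -0.21 (standard error 0.87, adjusted p = 0.981, edgeR).

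The 2 members that are transcription factors outside the bZIP class were high in few libraries. Egr1 (chromosome 18, positions 34859823 to 34864984), a zinc finger factor induced by ERK signalling and known in mice to hold stem cells in quiescence, had 43.9, 19.1 and 103 CPM in libraries labelled Hmga2, against 211, 40.2 and 22.3 CPM in vector libraries. Nr4a1 (chromosome 15, positions 101254269 to 101274795), an orphan nuclear receptor gene, had 4.47, 6.41 and 18.3 CPM in libraries labelled Hmga2, against 43.3, 5.5 and 7.16 CPM in vector libraries. In both genes vector replicate 1 came first and replicate 3 labelled Hmga2 second, and the other 4 libraries stayed below 50 CPM for Egr1 and below 10 CPM for Nr4a1. The log2 fold changes were -0.72 for Egr1 (standard error 0.90, adjusted p = 0.924, edgeR) and -0.94 for Nr4a1 (standard error 0.87, adjusted p = 0.894, edgeR).

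Ier2, a nuclear protein gene of the immediate early class, varied least and Dusp1 varied about as much as Jun. Ier2 (chromosome 8, positions 84661331 to 84662852) had 59.5, 56 and 108 CPM in libraries labelled Hmga2, against 146, 93.4 and 63.7 CPM in vector libraries. Dusp1 (chromosome 17, positions 26505590 to 26562128), whose product dephosphorylates MAP kinases and so ends the signal that induces the others, had 37.8, 23.3 and 65.5 CPM in libraries labelled Hmga2, against 126, 72.3 and 17.4 CPM in vector libraries. Vector replicate 3 was the lowest of all libraries for Dusp1, although vector replicate 1 was the highest. The log2 fold changes were -0.44 for Ier2 (standard error 0.36, adjusted p = 0.87, edgeR) and -0.77 for Dusp1 (standard error 0.66, adjusted p = 0.888, edgeR).

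Between the groups, 0 of the 10 members passed the adjusted threshold of 0.05 in edgeR, where 0 of 16739 genes passed (0%). At an unadjusted p under 0.05 the count was 0 members, beside 5.59% of all genes, and DESeq2 called 0 of the 9 members for which it gave an adjusted p (none was given for Fosb), beside 0.425% of all genes that had one. No member had groups that did not overlap, beside 11.2% of all genes tested. All 10 fold changes were negative, beside 49.6% of all genes, with a median of -0.79 against 0 over all genes. These 10 signs are not separate observations, because vector replicate 1 entered each of them. Without vector replicate 1 the median was -0.08, 6 of the 10 were negative, and Fos, Fosb, Egr1 and Nr4a1 were positive, with log2 fold changes of 0.50, 1.60, 0.83 and 0.62. Conversely, the median was -1.42 without replicate 3 labelled Hmga2 and -1.21 without vector replicate 3. Exact permutation of the 6 CPM values, two-sided, gave p between 0.3 and 0.9 for the single members, where 0.1 is the smallest value that 3 libraries against 3 allow.

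**Figure D2:**
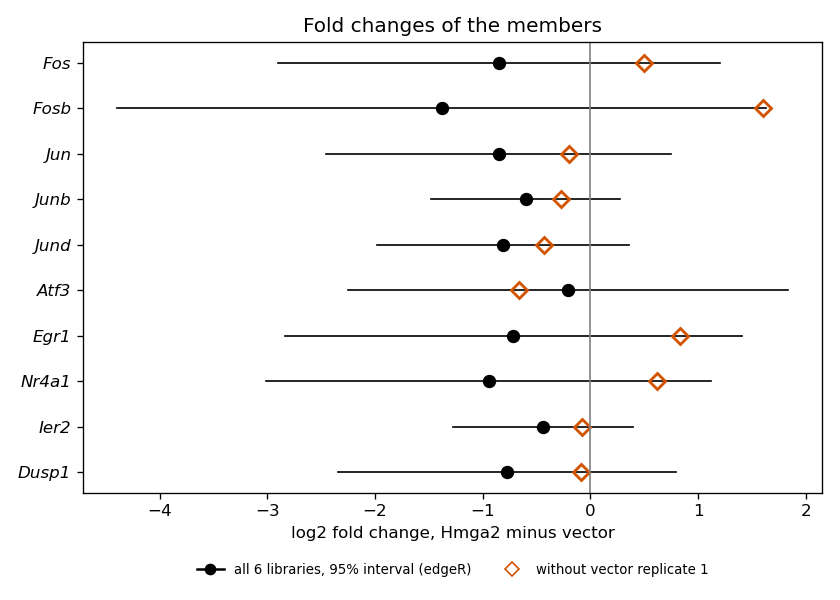
Log2 fold change, labelled Hmga2 minus vector, of each member from all 6 libraries (black points, with 95% intervals from edgeR) and without vector replicate 1 (orange diamonds). All black intervals cross 0, and 4 diamonds, those of Fos, Fosb, Egr1 and Nr4a1, lie right of 0.

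These genes differed widely between libraries of one label. Over the 9 members with a mean of at least 10 CPM, the highest library exceeded the lowest by a median of 3.81-fold among libraries labelled Hmga2 and of 7.22-fold among vector libraries, against 1.18-fold and 1.21-fold over the 10255 genes at that level. Between the other 2 libraries of each label, the median ratio was 1.63 without replicate 3 labelled Hmga2 and 2.32 without vector replicate 1, against 1.13 and 1.11 over all genes at that level. Over all 6 libraries the median ratio was 7.22 for these members and 1.32 for all genes at that level. The ratio over all 6 was 2.62 for Ier2, 3.13 for Junb, 4.52 for Jund, 7.14 for Jun, 7.22 for Dusp1, 9.69 for Nr4a1, 11 for Egr1, 11.4 for Fos and 36.5 for Fosb. The biological coefficient of variation, which edgeR estimates within groups after removing counting noise, had a median of 0.56 over these 9 members and of 0.14 over all genes at that level. At Ier2, the steadiest of them, 96.6% of genes still had a smaller ratio over all 6 libraries. The CV of the Fosb level was 90.8% among libraries labelled Hmga2 and 151% among vector libraries. For Ier2 these values were 39.1% and 41.4%, so both groups were spread out.

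**Figure D3:**
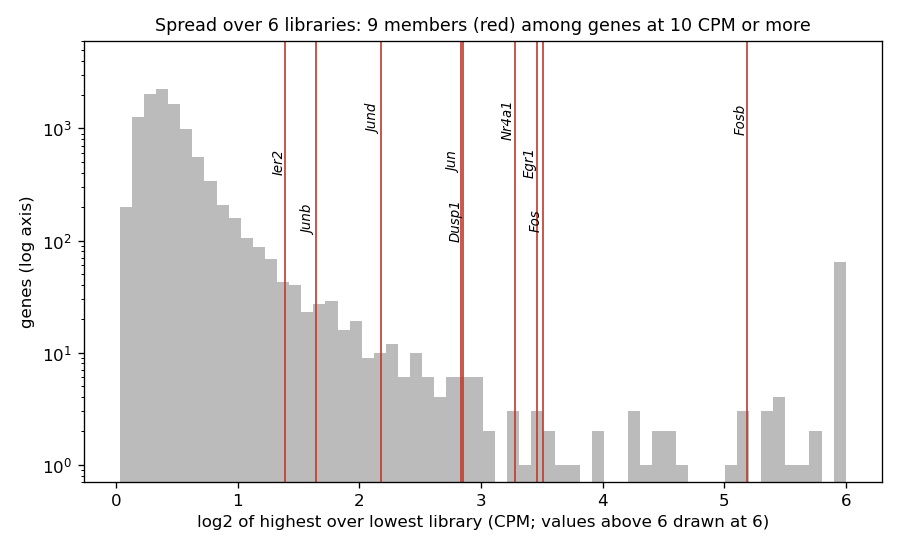
Histogram of the ratio of the highest to the lowest library (log2, horizontal axis) over genes with a mean of at least 10 CPM, with the number of genes on a log axis; red lines mark the 9 members at that level. The members lie in the right tail, from 2.62-fold for Ier2 to 36.5-fold for Fosb.

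Levels of different genes were set side by side per kilobase of the principal GENCODE transcript. On this scale the FOS and JUN genes together reached 132, 89 and 267 CPM per kilobase in libraries labelled Hmga2 and 515, 235 and 106 CPM per kilobase in vector libraries. Libraries with more of these transcripts did not always have them in the same proportions. Fos and Fosb made up 36.2%, 19.7% and 31.8% of the sum in libraries labelled Hmga2 and 42.5%, 21% and 15.6% in vector libraries. Fosb alone took 8.62% in vector replicate 1 and 1.15% to 4.76% elsewhere. Junb was the largest single part in vector replicate 3, at 38.5%, and Jund in replicate 2 labelled Hmga2, at 31.5%. By group means per kilobase, Ier2 (48.9), Fos (43.8) and Jun (41.1) led in libraries labelled Hmga2, while Fos (78.8), Jun (74.3) and Ier2 (66.4) led in vector libraries. Fos, Jun, Junb, Jund and Ier2 had CVs of 36.6% to 107% within groups and their group means did not differ beyond that spread, whereas Nr4a1 (3.81 labelled Hmga2, 7.31 vector) and Atf3 (0.592 labelled Hmga2, 0.689 vector) were the lowest in both groups.

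**Figure D4:**
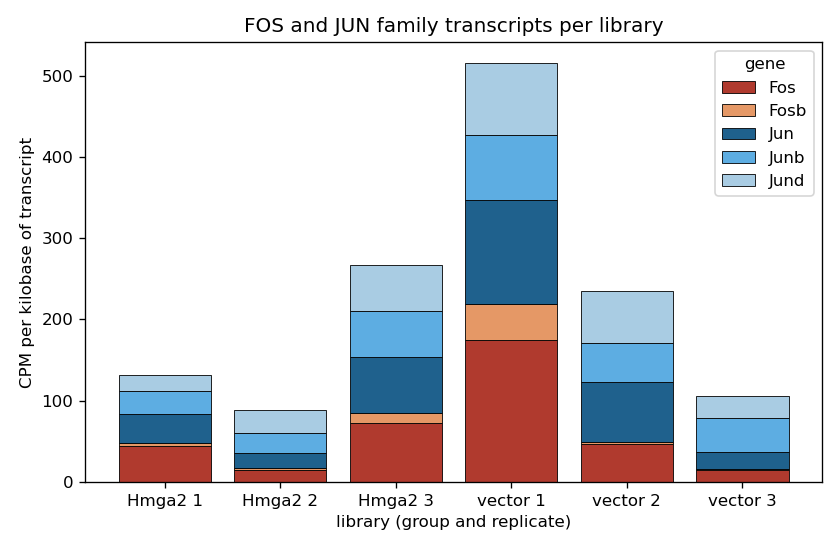
Stacked bars of Fos, Fosb, Jun, Junb and Jund in CPM per kilobase of transcript for each library, the 3 labelled Hmga2 on the left and the 3 vector libraries on the right. The total runs from 89 in replicate 2 labelled Hmga2 to 515 in vector replicate 1.

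Genes outside the 10 were compared with the members' median profile, the median over members of log2(CPM + 2) minus each gene's own mean. That profile was -0.46, -0.83 and 0.55 in libraries labelled Hmga2 and 1.44, 0.16 and -0.83 in vector libraries. Among 9281 other named genes at 10 CPM or more, the smallest root mean square difference from it over the 6 libraries was 0.169, for Zfp36, whose product (tristetraprolin) promotes the decay of AU-rich mRNAs. Zfp36, itself an immediate early gene, had 93.2, 62.2 and 141 CPM in libraries labelled Hmga2, against 249, 127 and 62 CPM in vector libraries. The next 4 were Podxl, encoding a sialomucin of the cell surface (0.422), Ppp1r15a, a stress-induced phosphatase subunit gene (0.426), the nuclear noncoding RNA Malat1 (0.458) and the guanine deaminase gene Gda (0.473). Among the members this difference ran from 0.288 for Dusp1 to 0.917 for Atf3, so Zfp36 lay nearer to the profile than any member did.

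The wider set of immediate early response genes varied less, the highest library exceeding the lowest by a median of 1.64-fold over the 24 at 10 CPM or more. Of 44 listed, 37 passed the count filter, 0 passed in edgeR, and 25 were negative and 12 positive, with a median log2 fold change of -0.16. At an unadjusted p under 0.05 edgeR also had 0 of the 37, and DESeq2 called 0. Vector replicate 1 was the highest library for 19 of the 37. Without that library the median was 0.10. The 10 most abundant of them were Zfp36l2, Myc, Pim1, Mcl1, Zfp36, Cited2, Per1, Nfkbia, Rgs2 and Rgs1. Zfp36l2, a relative of Zfp36, had 943, 1052 and 988 CPM in libraries labelled Hmga2, against 1055, 746 and 830 CPM in vector libraries. Myc, the growth-promoting factor gene, had 583, 422 and 463 CPM in libraries labelled Hmga2 and was lowest of all in vector replicate 1, at 374 CPM, beside 535 and 542 CPM in vector replicates 2 and 3. Rgs1, a regulator of G protein signalling, had 50.9, 48.5 and 58.6 CPM in libraries labelled Hmga2 and followed the members within the vector group, at 98.3, 40.9 and 24.7 CPM. Pim1 and Mcl1, which encode a survival kinase and an anti-apoptotic BCL2 relative, ranged over 1.14-fold and 1.28-fold. Per1, Cited2, Nfkbia and Rgs2 ranged over 1.49-fold to 2.23-fold.

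Related AP-1 and bZIP genes had a median ratio of highest to lowest library of 1.39 over the 9 at 10 CPM or more. Of 16 genes, all tested, 10 were positive and 6 negative, with a median log2 fold change of 0.08 and 0 passing in edgeR. Nfe2, a bZIP factor of megakaryocytes and erythroid cells, ranged over 1.35-fold, Mafg over 1.15-fold, Mafk over 1.19-fold, Atf7 over 1.45-fold and Atf2 over 1.46-fold. For these 5, the most abundant, the log2 fold changes lay between 0.00 and 0.18. Kinases and transcription factors upstream of the members had a median log2 fold change of 0.05 over 23 genes, 16 positive and 7 negative, and 0 passed. At an unadjusted p under 0.05 edgeR had 2 of these 23, both positive, beside 5.59% of all genes. Groups did not overlap for 3 that were higher and 1 that was lower in libraries labelled Hmga2, beside 11.2% of all genes tested. The kinase gene Mapk14 ranged over 1.15-fold and Mef2d over 1.24-fold. Of 13 further MAP kinase phosphatase and ERK feedback genes, 8 were positive and 5 negative with a median of 0.09, and 0 passed. The ERK phosphatase gene Dusp6 had 48.8, 48.6 and 45 CPM in libraries labelled Hmga2, against 45.2, 33.4 and 30.3 CPM in vector libraries, with a log2 fold change of 0.39 (adjusted p = 0.855, edgeR) beside -0.77 for Dusp1. Spred1 and Dusp2 had log2 fold changes of 0.25 and 0.16.

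**Figure D5:**
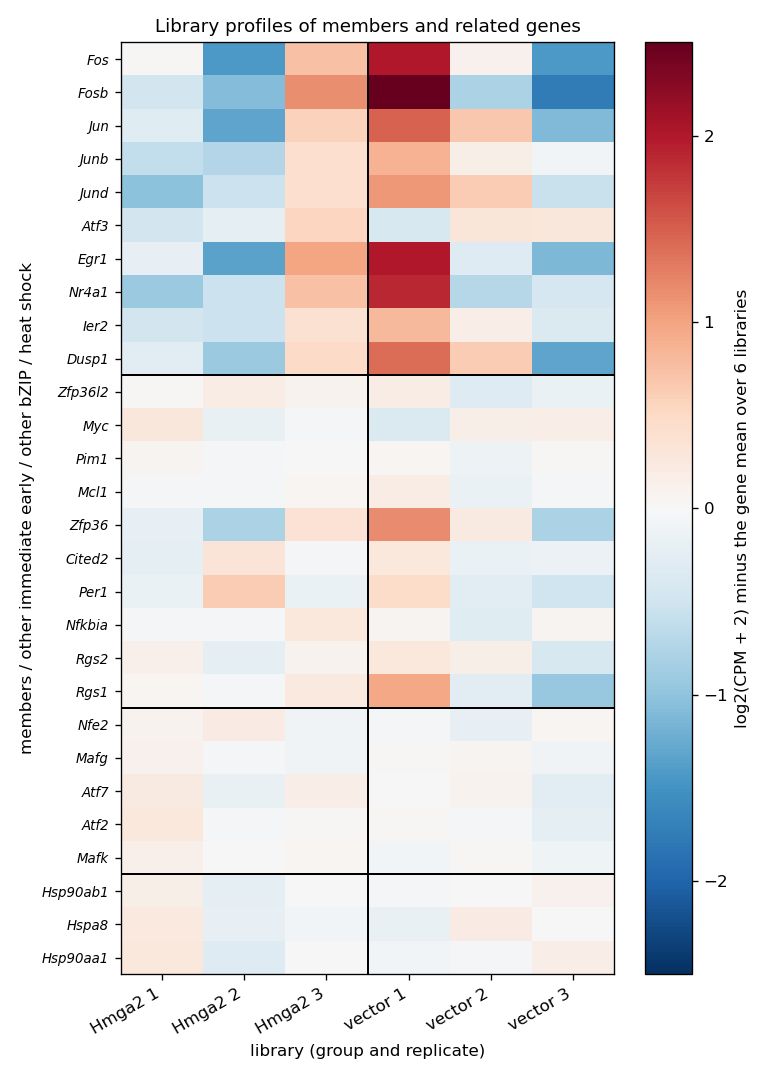
Heat map of log2(CPM + 2) minus the gene mean over the 6 libraries for the 10 members, the 10 most abundant other immediate early genes, 5 other bZIP genes and 3 heat shock genes, from top to bottom. The 3 libraries labelled Hmga2 are the left columns; vector replicate 1 is red for 9 of the 10 members and for Zfp36 and Rgs1, while the rows of the bZIP and heat shock genes stay pale.

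Heat shock and handling genes, which respond to cell stress, had 11 of 13 log2 fold changes negative and a median of -0.07, with 0 passing in edgeR. The most abundant, Hsp90ab1, Hspa8 and Hsp90aa1, ranged over 1.3-fold, 1.36-fold and 1.51-fold and were not highest in vector replicate 1. Hspa1a, chosen after its values were seen, was nearer to the members, with 46.8, 11.5 and 70.8 CPM in libraries labelled Hmga2, against 136, 90.3 and 46.1 CPM in vector libraries. Its near-identical copy Hspa1b had 61.6, 15.8 and 85.6 CPM in libraries labelled Hmga2 and 155, 101 and 57.8 CPM in vector libraries, and reads shared by the pair cannot be assigned with certainty.

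Cell type markers were summed in each library, and in bulk samples fewer cells of a type and less RNA per cell cannot be told apart. B cell and plasma cell markers (13 genes, 10 of them at a mean of at least 1 CPM) summed to 852, 4577 and 631 CPM in libraries labelled Hmga2 and to 13783, 811 and 11770 CPM in vector libraries. The 3 highest sums were those of vector replicate 1, vector replicate 3 and replicate 2 labelled Hmga2. Monocyte and macrophage markers (12 of 12 at 1 CPM or more) summed to 193, 214 and 398 CPM in libraries labelled Hmga2 and to 214, 433 and 358 CPM in vector libraries, with vector replicate 1 the lowest vector library.

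Granulocyte markers were lower on average in libraries labelled Hmga2. All 12 had negative log2 fold changes, with a median of -1.43, 9 had an unadjusted p under 0.05 in edgeR, beside 5.59% of all genes, and 8 had groups that did not overlap, all 8 lower in libraries labelled Hmga2, beside 11.2% of all genes, while 0 passed the adjusted threshold. They summed (11 of 12 at 1 CPM or more) to 4860, 2986 and 4114 CPM in libraries labelled Hmga2 and to 4393, 9322 and 5002 CPM in vector libraries, with Mpo the largest part and the highest sum in vector replicate 2. Among the 8 without overlap, some had few counts in libraries labelled Hmga2, such as Ltf with 3, 19 and 2. Others had many, such as Elane with 6627, 5321 and 5124. For Mpo, Prtn3 and Ctsg, the most abundant granulocyte markers, the groups overlapped. Erythroid markers (12 of 12) summed to 1224 to 2163 CPM in libraries labelled Hmga2 and to 1800 to 2166 CPM in vector libraries. T and NK cell markers (2 of 10) summed to 151 to 179 CPM in libraries labelled Hmga2 and to 130 to 233 CPM in vector libraries, mostly from Nkg7, at 123 to 231 CPM. The 11 LSK and stem cell markers summed to 1922 to 1985 CPM in libraries labelled Hmga2 and to 1492 to 1798 CPM in vector libraries. No marker was at 0 in all libraries. The summed level of 4 Y-linked genes was 192, 5.27 and 127 CPM in libraries labelled Hmga2 and 6.62, 21.5 and 5.44 CPM in vector libraries, highest in replicates 1 and 3 labelled Hmga2. The part of these differences, and of sorting or handling, in the levels of the members was not tested.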

How the data were processed

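RNA of LSK cells was sequenced in 6 mouse marrow libraries, 3 labelled Hmga2 and 3 vector, with group and replicate taken from the titles. The values the authors deposited were expected counts, estimated counts per gene symbol, judged from the values: 67.3% to 70.1% of those above 0 were whole within 1e-06. Partek 3.0, Bowtie2 and the build mm10 are named per the submitters' processing notes; the counting program, its annotation and its use of strand are not stated there. Counts were rounded and tested over the whole table with edgeR 4.0.16 in R 4.3.3 (TMM factors after filterByExpr, quasi-likelihood F test on group alone, Benjamini-Hochberg adjustment, threshold 0.05). The F statistic gave the standard errors. CPM came from the unrounded values. DESeq2 1.42.0 was an alternative. On simulated counts for the same 16739 genes, edgeR recovered 45 of 100 genes changed 2-fold and 89 of 100 changed 4-fold, with 9 false calls. These shares refer to genes over the whole table and do not give the recovery of genes as variable as the members. The median biological coefficient of variation was 0.56 for the 9 members at 10 CPM or more, against 0.14 over all genes at that level. A value of 3 counts equals 0.0848 to 0.126 CPM depending on the library, which limits counting error alone. The edgeR p-values set the group difference against the spread between libraries within groups. Within groups, every pair of libraries differed beyond sampling noise, with a chi-square over its degrees of freedom of 24.8 to 57.

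The members and lists were chosen with earlier results of these data known. Named genes were the 10 members, Hmga2, the 10 most abundant other immediate early genes, the 5 most abundant other bZIP genes, the 3 most abundant of further lists, of which those of the marker lists are given as sums, and the 5 genes nearest to the members' profile, without predicted and immunoglobulin genes; Hspa1a, Hspa1b and Ly6a fall outside this rule, and of the genes it takes Jak2 is not described and 1 other is not reported here. Positions and transcript lengths come from GENCODE M21 on GRCm38, the build of mm10, and promoters from RefSeq on GRCm38.p6.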

Additional observations from a re-analysis of the deposited data

How the results depend on the processing

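The count of members called, 0, was the same under all 15 alternatives, which were a block for replicate number, 6 fits that each leave out a library, RLE size factors, library totals alone, no filter on low counts, DESeq2, a robust fit, immunoglobulin genes left out, and a term either for libraries above 1000 CPM of Igha or for Y-linked genes. Over all genes edgeR called 0, and called 1 without the count filter, while DESeq2 called 71. The members' median log2 fold change of -0.79 ran from -1.42 to -0.08 with single libraries left out, was -0.57 with the replicate block, -0.89 with the Igha term and -1.20 with the Y-linked term, and lay between -0.80 and -0.78 under the other alternatives. The count of members whose groups did not overlap ran from 0 to 3 with single libraries left out, being 3 without vector replicate 3 and 2 without Hmga2 replicate 3. The share of all genes was not counted for these fits, and 3 libraries against 2 separate more easily than 3 against 3. These counts therefore have no background and are not read as a result about the members. The median of the other immediate early genes, -0.16, ran from -0.25 to 0.10 with single libraries left out, and was positive only without vector replicate 1. With single libraries left out, the log2 fold change ran from -1.41 to 0.50 for Fos, from -2.44 to 1.60 for Fosb, from -1.53 to 0.83 for Egr1, from -1.78 to 0.62 for Nr4a1 and from -1.49 to 0.26 for Atf3. Without vector replicate 1 the signs of Fos (0.50), Fosb (1.60), Egr1 (0.83) and Nr4a1 (0.62) turned. Atf3 turned without vector replicate 2 (0.10) or 3 (0.09), or Hmga2 replicate 1 (0.26) or 2 (0.07). The cause of these turns was not tested beyond the library left out. Jun, Junb, Jund, Ier2 and Dusp1 stayed negative under all 15 alternatives.

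Same-numbered libraries did not deviate together (correlations of -0.19, -0.48 and -0.20), so the numbers were not taken to pair libraries. The replicate block changed no call of a member. The standard error of Atf3, at 10 to 88 counts per library, was 0.87, as was that of Fos at 776 to 11669 counts, and their biological coefficients of variation, which leave out counting noise, were 0.73 and 0.70.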
